A study of Mus musculus with 6 samples.

Results

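Macrophages that lack both miR-221 and miR-222 were set against wild-type macrophages after a first exposure to lipopolysaccharide (LPS), gene by gene. The comparison rests on 1 mRNA library of each genotype, 2 of the 6 libraries of the series. Levels are in FPKM, a measure of fragments that corrects for transcript length and for the size of the library. Genes entered where the deposited tables marked the value as OK in both libraries, listed the symbol once and gave at least 2 FPKM in either library. That left 8694 of the 23699 rows of each table.

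The KO LPS cells were peritoneal macrophages of genotype miR-221/222 -/Y and the WT LPS cells were wild-type peritoneal macrophages, both on the C57Bl/6 background and both given LPS at 1000 ng/ml over 4 h. For context the series also holds cells of each genotype that had no LPS (naive) and cells of each genotype that were tolerized, which means a first dose of 10 ng/ml for 15 h, a wash with 2 h of rest, and a second dose of 1000 ng/ml for 4 h. Each group is a single library although triplicates are described for the series, so no difference between KO LPS and WT LPS had a replicate check. The labels give no number of animals, no ages and no detail of how the deletion was made.

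LPS comes from the outer membrane of Gram-negative bacteria and is sensed by Toll-like receptor 4 with its co-receptors. One adaptor arm of the receptor activates NF-kappaB and the early cytokine genes. The other activates Irf3 and the interferon beta gene, whose product acts back on the cells through the interferon receptor and switches on antiviral genes. MicroRNAs pair with short sites in the 3′ UTR of mRNAs through their seed (bases 2 to 8) and lower the level or translation of those mRNAs. Smarca4 encodes Brg1, an ATPase that drives SWI/SNF chromatin remodelling. It is a reported target of miR-222 and is needed for many late LPS genes.

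The mature forms of the deleted microRNAs are shown because their shared seed defines the sites searched for further on. Sequences are from RefSeq (GRCm38.p6), at chrX:19146307-19146329 and chrX:19146901-19146923 on the minus strand, with the seed in capitals.
mmu-miR-221-3p: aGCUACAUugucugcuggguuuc
mmu-miR-222-3p: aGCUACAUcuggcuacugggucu
The first 8 bases of both are the same, so a site for one is a site for the other. The deposited tables listed Mir221 (chromosome X, 18723420 to 18723514, mm9) and Mir222 (chromosome X, 18724019 to 18724097, mm9) at 0 FPKM in all 6 libraries. Mature microRNAs are not captured by poly-A selection, so these rows do not check the genotype labels.

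FPKM summed to 604885 in KO LPS and 681618 in WT LPS, and the 50 most abundant rows held 44.1% of it in KO LPS and 47.1% in WT LPS. The deposited intervals had a median half-width of 5.3% in KO LPS and 5.7% in WT LPS at 10 FPKM or more, and of 14.8% and 15.3% at 2 to 5 FPKM, KO LPS first. They cover counting error only. Differences are KO LPS minus WT LPS on the log2(FPKM + 1) scale, which understates the change of low genes, and ± is the counting error implied by the intervals. Pan-macrophage markers, 17 of them at 2 FPKM or more, summed to 25285 FPKM in KO LPS and 29349 FPKM in WT LPS. B cell markers summed to 509 FPKM in KO LPS and 575 FPKM in WT LPS, so B cell RNA was present in both libraries.

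With LPS, KO macrophages held more interferon beta, antiviral, complement and acute phase mRNA than WT macrophages, and less mRNA of the C1q genes, of Apoe, Apoc1 and Apoc2, and of GM-CSF. Tnf and Il6, the classical LPS cytokines, differed by less than 2-fold. At least 2-fold higher in KO LPS were 371 genes (4.27% of those compared) and at least 2-fold lower 273 (3.14%), together 7.41%. The deposited intervals of the libraries were apart as well for 364 of the higher (4.19%) and 266 of the lower genes (3.06%). At least 4-fold higher were 50 genes and lower 39, and at least 8-fold higher 15 and lower 11, while 74.7% of all genes lay within 1.5-fold.

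The median over all genes was -0.13, and scaling the libraries by the median of their ratios brought it to 0.00. That rescaling gave 511 higher and 219 lower genes, so 70.0% of calls were higher after rescaling and 57.6% as deposited. The median of a whole list in the LPS pair is therefore given relative to the all-gene median. Counts within a list stand against the all-gene shares of 4.27% higher and 3.14% lower. In a short list, 0 calls is near those shares. Medians of other sets of genes, and those in naive and tolerized cells, are given as they are, and the all-gene median was -0.04 in naive and -0.02 in tolerized cells. Levels set between conditions are as deposited too. Rescaling divides each library by a scale factor. The factors were 0.74 in KO LPS, 0.82 in WT LPS, 1.21 in KO naive, 1.21 in WT naive, 1.06 in KO tolerized and 1.09 in WT tolerized. By the higher of the levels in KO LPS and WT LPS, 5.62% of genes from 2 to 10 FPKM differed at least 2-fold, 7.99% from 10 to 100 FPKM, 12% from 100 to 1000 FPKM and 14.3% above. The genes include 22 of small RNAs, which poly-A libraries do not measure well, 7 of them higher and 9 lower.

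**Figure D1:**
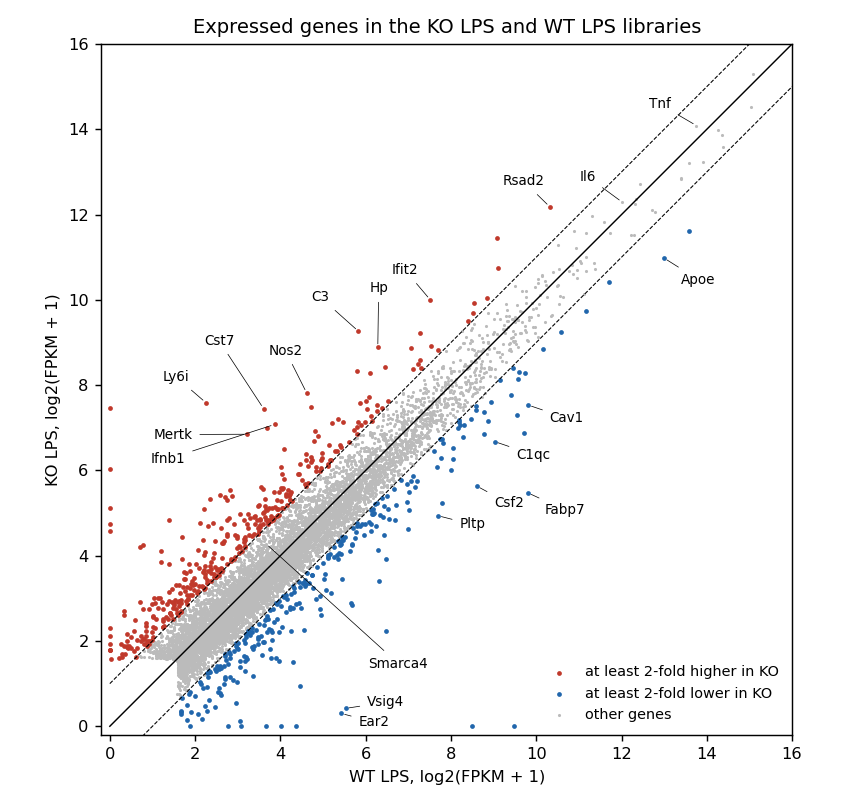
Level of each of 8694 genes in KO LPS (vertical) and WT LPS (horizontal), both as log2(FPKM + 1); the solid line marks equal levels and the dashed lines 2-fold. Of the genes, 371 are at least 2-fold higher in KO LPS (red) and 273 lower (blue), with Tnf and Il6 between the dashed lines; points on the axes are genes at 0 FPKM in 1 library.

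Where a library reached 10 FPKM and the intervals were apart, the largest difference upward was that of Ly6i, a member of the Ly6 family of surface antigens, at 192 FPKM in KO LPS and 3.75 FPKM in WT LPS (5.34 ± 0.17). Ly6 genes are near copies of each other, so its value is uncertain. Cst7, which encodes the lysosomal protease inhibitor cystatin F, had 174 FPKM in KO LPS and 11.2 FPKM in WT LPS (3.85 ± 0.11). Mertk, a receptor kinase for engulfing dying cells, had 114 FPKM in KO LPS and 8.37 FPKM in WT LPS (3.62 ± 0.06). In naive cells Mertk had 34.2 FPKM in KO naive and 53.5 FPKM in WT naive. The KO library was thus above its own naive level with LPS and the WT library below its own.

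Next came Susd2 with 17.3 FPKM in KO LPS and 0.637 FPKM in WT LPS (3.48 ± 0.10), Clic5, a chloride intracellular channel protein gene, with 18.2 and 0.716 FPKM, KO LPS first (3.48 ± 0.07), and 1100001G20Rik with 27.7 and 1.63 FPKM, KO LPS first (3.45 ± 0.36). All of them were near or below 2 FPKM in WT LPS. Inhba, the activin A subunit gene, had 126 FPKM in KO LPS and 11.8 FPKM in WT LPS (3.31 ± 0.08). Mxd1, a Max partner that opposes Myc, had 33.4 FPKM in KO LPS and 3.59 FPKM in WT LPS (2.9 ± 0.07). Siglec1, a sialic acid receptor of macrophages, had 16.3 FPKM in KO LPS and 1.29 FPKM in WT LPS (2.92 ± 0.07). The gelatinase gene Mmp9 was at 2.84, the transcription factor gene Creb5 at 2.66 and Tnfsf4, the OX40 ligand gene, at 2.65, and 9930111J21Rik1, H2-M2, A430084P05Rik, 9030425E11Rik and Serf1 lay between 2.66 and 3.0. Serf1 and 9930111J21Rik1 have near copies and are uncertain. C3, Ifnb1 and Nos2 complete the 20 largest and are described with their groups.

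The interferon beta gene Ifnb1 (chromosome 4, 88167929 to 88168698, mm9) had 134 FPKM in KO LPS and 13.5 FPKM in WT LPS (3.21 ± 0.12), with deposited intervals of 127 to 141 FPKM in KO LPS and 11.3 to 15.8 FPKM in WT LPS. In naive cells Ifnb1 had 0.103 FPKM in KO naive and 0 FPKM in WT naive, and in tolerized cells 1.65 FPKM in KO tolerized and 0.438 FPKM in WT tolerized. Its level was thus highest with a first LPS dose in both genotypes. Of the interferon alpha genes, looked at after their values were seen, Ifna4 had 5.73 FPKM in KO LPS and 0.725 FPKM in WT LPS, while Ifna2 and Ifna5 had 2.8 and 2.48 FPKM in KO LPS and were listed at 0 in WT LPS. These genes are near copies whose reads can be shared, so each single value is uncertain.

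Of 50 interferon-stimulated genes measured, 9 were at least 2-fold higher in KO LPS, 0 were lower and 44 lay above 0. Their median was 0.62 above that of all genes. Of the same genes, 20 were at least 2-fold higher in KO naive and 20 in KO tolerized cells, more than with LPS, against 4.0% and 1.86% of all genes in those pairs. The list median was 0.61 in naive and 0.70 in tolerized cells. Ifit2, an antiviral RNA-binding protein gene, had 1025 FPKM in KO LPS and 182 FPKM in WT LPS (2.49 ± 0.01). Rsad2, which encodes the antiviral enzyme viperin, had 4650.2 FPKM in KO LPS and 1273 FPKM in WT LPS (1.87 ± 0.01). Both were higher in KO cells in naive and tolerized cells as well, Ifit2 by 1.44 and 3.1 and Rsad2 by 2.37 and 2.91. Ifi44 had 30.4 FPKM in KO LPS and 7.3 FPKM in WT LPS (1.92 ± 0.07). Cmpk2, a mitochondrial nucleotide kinase gene, had 1729 FPKM in KO LPS and 546 FPKM in WT LPS (1.66 ± 0.01).

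The other members past 2-fold were Ifi27l2a (1.3), Ifit3 (1.19), Slfn4 (1.17), Dhx58, an RNA sensor gene (1.15), and Pyhin1 (1.11), and after rescaling the count was 13. Slfn and Pyhin genes have near copies, so their single values are uncertain. The lowest member was Oas1b at -0.60. Ifit1 and Cxcl10 were picked out with their values known. Ifit1 had 1509 FPKM in KO LPS and 1132 FPKM in WT LPS (0.41 ± 0.01), and Cxcl10 5246 and 5175 FPKM, KO LPS first (0.02 ± 0.01). The difference was therefore uneven over the interferon response.

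Interferon-inducible GTPases, which attack the vacuoles of intracellular microbes, lay above 0 in all 16 measured members, as deposited and relative to the all-gene median. Of these 7 were at least 2-fold higher in KO LPS and 0 lower, and the median was 0.88 above that of all genes. Iigp1 had 323 FPKM in KO LPS and 54.7 FPKM in WT LPS (2.54 ± 0.03). Gbp9 had 90.0 FPKM in KO LPS and 16 FPKM in WT LPS (2.42 ± 0.05), and Gbp4 47.7 and 10.6 FPKM, KO LPS first (2.07 ± 0.05). Gbp6, Gbp10, Gbp11 and Gbp7 were at 1.72, 1.7, 1.59 and 1.07. Gbp genes lie in clusters of near copies, so their single values are uncertain.

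The genes that transmit interferon signals differed less. Of 23 measured, 0 were at least 2-fold higher (2 after rescaling) and 1 was lower. Stat2 had 106 FPKM in KO LPS and 86.6 FPKM in WT LPS (0.29 ± 0.02), and Irf9 62.2 and 73 FPKM, KO LPS first (-0.23 ± 0.04). Irf8, a lineage factor of macrophages, was at 0.97 and Stat3, which carries interleukin-6 and interleukin-10 signals, at 0.86. The lower gene was Ifngr1, a subunit of the interferon gamma receptor, with 14.8 FPKM in KO LPS and 37.4 FPKM in WT LPS (-1.28 ± 0.07).

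The promoters of Rsad2 and Ifit3 are shown because they hold the motif GAAANNGAAA, the core of the interferon-stimulated response element, searched on both strands from 250 bases before to 50 after the start (RefSeq, GRCm38.p6). Rsad2 is at chr12:26456403-26456702 on the minus strand and Ifit3 at chr19:34583279-34583578 on the plus strand, with the motif or its reverse complement in capitals.
Rsad2: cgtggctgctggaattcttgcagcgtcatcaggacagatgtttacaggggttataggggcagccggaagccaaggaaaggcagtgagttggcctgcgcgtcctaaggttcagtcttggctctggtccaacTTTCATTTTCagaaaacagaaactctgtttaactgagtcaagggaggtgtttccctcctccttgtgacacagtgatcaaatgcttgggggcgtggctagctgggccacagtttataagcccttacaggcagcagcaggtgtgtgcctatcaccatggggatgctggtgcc
Ifit3: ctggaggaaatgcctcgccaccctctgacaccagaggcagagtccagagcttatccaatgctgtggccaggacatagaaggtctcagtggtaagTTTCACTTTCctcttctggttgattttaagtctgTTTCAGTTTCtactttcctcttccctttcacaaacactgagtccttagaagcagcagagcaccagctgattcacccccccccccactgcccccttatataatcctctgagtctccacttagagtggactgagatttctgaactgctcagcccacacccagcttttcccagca
The Rsad2 window holds 1 match and the Ifit3 window 2. Of the genes higher in KO LPS with a promoter in the table, 11.2% (30 of 268) had a match, against 2.79% (6 of 215) of those lower, 4.03% of those within 2-fold and 4.27% of all 6978. The 30 include Ifna2, Ifna4, Ifna5 and 9930111J21Rik1, each counted as a gene, whose values are uncertain because they have near copies. They also include the related genes Apol9a and Apol9b, Pydc3 and Pydc4, and Slfn9, so they are not 30 independent genes. Over all 32851 promoter windows the share was 3.44%. Within the interferon-stimulated list, 18 of 36 promoters had a match, and the median difference of those genes, not centred, was 0.29, against 0.61 for those without one. A match is a run of letters in this window, and binding was not measured.

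**Figure D2:**
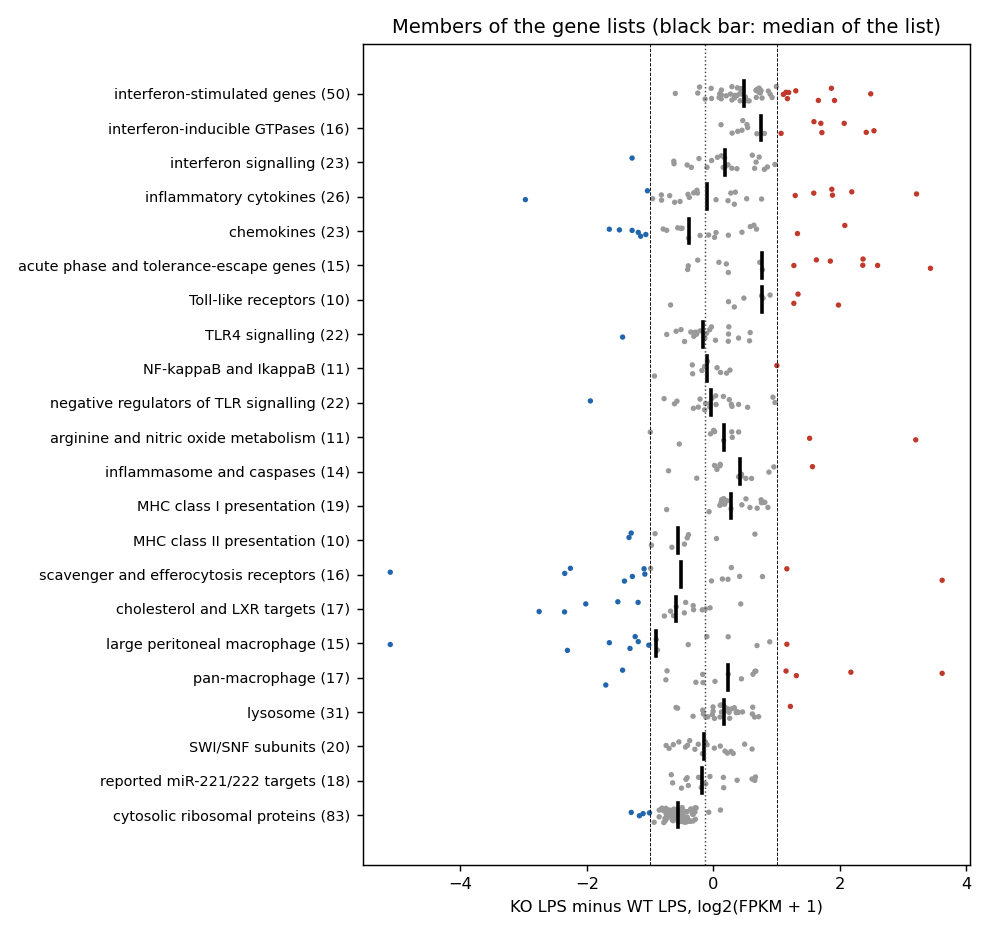
Log2 difference of KO LPS minus WT LPS (horizontal) for each measured member of the gene lists shown (rows, member count in brackets). Points are genes, red at least 2-fold higher and blue at least 2-fold lower in KO LPS, black bars are list medians, dashed lines mark 2-fold and the dotted line the all-gene median of -0.13; interferon-inducible GTPases all lie right of 0, and cholesterol genes mostly left of it.

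Cytokine genes differed in both directions. Of 26 measured, 6 passed 2-fold upward and 2 downward in KO LPS (1 lower after rescaling), and the median was 0.03 above that of all genes. Tnf had 17407 FPKM in KO LPS and 13818 FPKM in WT LPS (0.33), and Il6 5013 and 4138 FPKM, KO LPS first (0.28 ± 0.01). Il12b, the shared subunit of interleukin-12 and interleukin-23, had 81.4 FPKM in KO LPS and 144 FPKM in WT LPS (-0.82 ± 0.03). These classical LPS cytokines were all within 2-fold, Tnf and Il6 above WT LPS and Il12b below it.

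Csf2, the gene of the growth factor GM-CSF, had 48.6 FPKM in KO LPS and 388 FPKM in WT LPS (-2.97 ± 0.05). In naive cells Csf2 had 2.72 FPKM in KO naive and 0.173 FPKM in WT naive, the opposite order at low levels. Tnfsf15, a TNF family ligand gene, had 310.0 FPKM in KO LPS and 67.1 FPKM in WT LPS (2.19 ± 0.02), and Csf3, the neutrophil growth factor gene, 136 and 36.2 FPKM, KO LPS first (1.88 ± 0.06). The GM-CSF and G-CSF genes thus lay on opposite sides. The others past 2-fold were Ifnb1, Tnfsf10, the TRAIL gene (1.87), Il1f6 (1.59) and Il1f9 (1.3) upward and Osm, the oncostatin M gene (-1.04), downward.

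Of 23 chemokine genes, 2 passed 2-fold upward and 6 downward in KO LPS (5 downward after rescaling), with a median 0.26 below that of all genes. The higher ones encode interferon-induced ligands of Cxcr3, Cxcl9 with 28.3 FPKM in KO LPS and 5.94 FPKM in WT LPS (2.08 ± 0.08) and Cxcl11 with 6.19 and 1.86 FPKM, KO LPS first (1.33 ± 0.17). Another such ligand gene, Cxcl10, described above, was far more abundant and nearly equal in KO LPS and WT LPS. Among the lower ones, Cxcl14 had 1.9 FPKM in KO LPS and 8.05 FPKM in WT LPS (-1.64 ± 0.14) and Ccl17, which attracts T helper cells, 10.8 and 32 FPKM, KO LPS first (-1.49 ± 0.19). Cxcl3, Cxcl13, Ccl24 and Cxcl16 were at -1.28, -1.19, -1.15 and -1.07. The neutrophil attractants Cxcl2 and Cxcl1 were within 2-fold, at -0.79 and -0.74. In naive cells the chemokine list lay the other way, with a median of 1.32. Of 10 chemokine and chemoattractant receptor genes, 0 were higher and 0 lower, and C3ar1, the C3a receptor gene, was farthest from 0 at -0.85.

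Acute phase genes, listed with genes described as escaping silencing in tolerance, had 7 of 15 at least 2-fold higher in KO LPS and 0 lower, with a median 0.91 above that of all genes. C3, the central complement component, had 614 FPKM in KO LPS and 55.9 FPKM in WT LPS (3.43 ± 0.02). Cfb, factor B of the alternative complement pathway, had 2781 FPKM in KO LPS and 538 FPKM in WT LPS (2.37 ± 0.01), and Hp, haptoglobin, 471 and 76.9 FPKM, KO LPS first (2.6 ± 0.04). Orm1, an acute phase plasma protein gene (2.36), Lcn2, a siderophore binder gene (1.85), Cp, the ceruloplasmin gene (1.63), and Serpina3g (1.27) followed. In naive cells C3 had 595 FPKM in KO naive and 96.3 FPKM in WT naive and Cfb 2798 and 167 FPKM, KO naive first. For both genes the KO level as deposited was thus close with and without LPS. The scale factors, 1.21 in KO naive and 0.74 in KO LPS, would place both genes higher with LPS. The list's median was 2.57 in naive and -0.04 in tolerized cells.

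Nos2, the inducible nitric oxide synthase (chromosome 11, 78734361 to 78773626, mm9), had 225 FPKM in KO LPS and 23.5 FPKM in WT LPS (3.2 ± 0.04). In naive cells Nos2 had 0.453 FPKM in KO naive and 0.0752 FPKM in WT naive, and in tolerized cells 304 FPKM in KO tolerized and 23.3 FPKM in WT tolerized. The KO level was far above the WT level after either LPS schedule. Arg2, a mitochondrial arginase gene whose product uses the same substrate, had 46.4 FPKM in KO LPS and 15.5 FPKM in WT LPS (1.52 ± 0.08). Of 11 arginine and nitric oxide genes, Nos2 and Arg2 were the 2 at least 2-fold higher and 0 were lower, with Sat1, which acetylates polyamines, just inside 2-fold at -1.0.

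**Figure D3:**
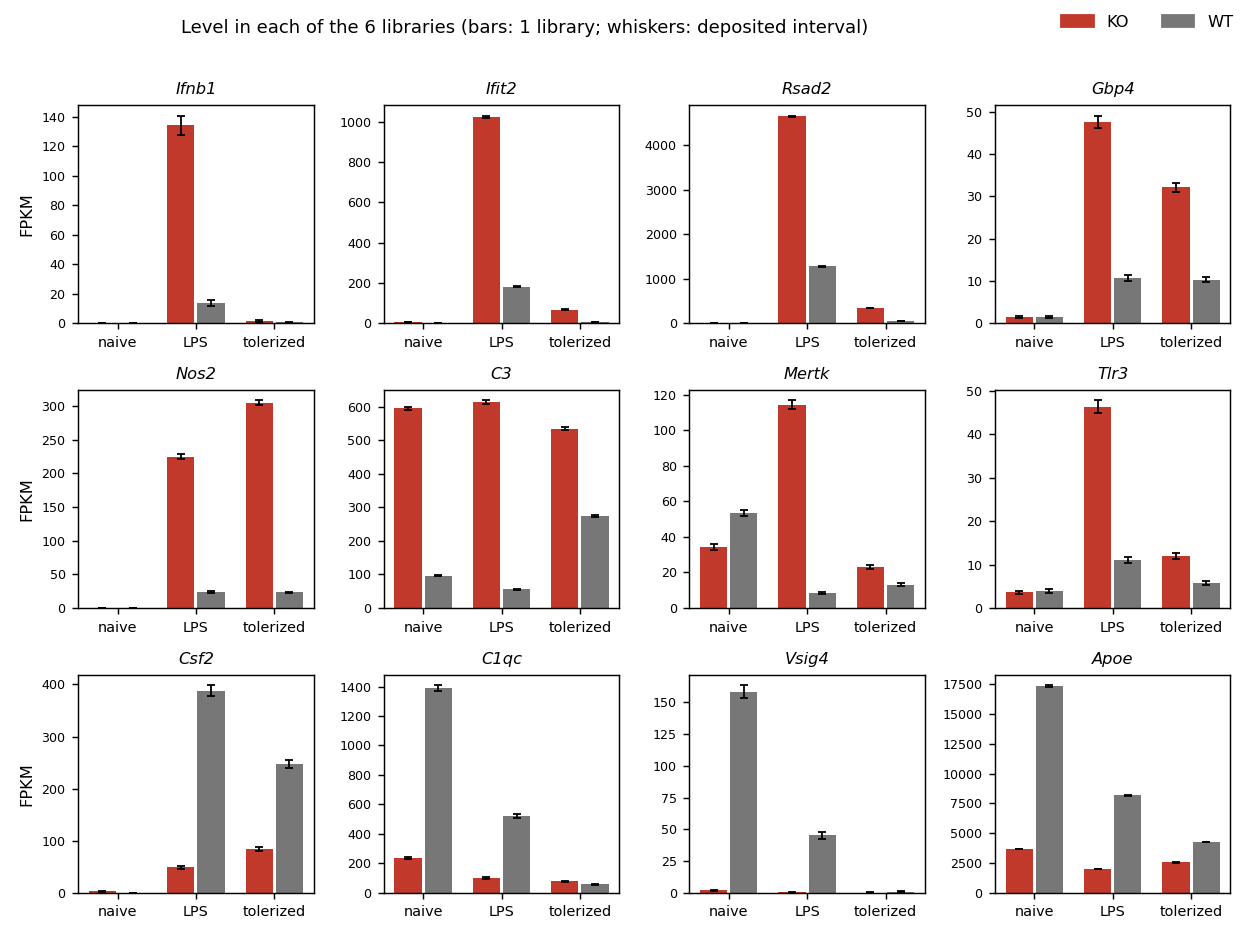
FPKM of 12 genes in the 6 libraries, naive, LPS and tolerized, with KO (red) left of WT (grey); bars are 1 library each, start at 0 and carry the deposited interval as whiskers. Ifnb1 is high with LPS alone and Nos2 is higher in KO than in WT with LPS and in tolerized cells.

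Of 10 Toll-like receptor genes, 3 were at least 2-fold higher in KO LPS (4 after rescaling) and 0 lower, with a median 0.91 above that of all genes. Tlr3, the sensor of double-stranded RNA, had 46.3 FPKM in KO LPS and 11 FPKM in WT LPS (1.98 ± 0.05). Tlr6, a partner of Tlr2, had 25.8 FPKM in KO LPS and 9.57 FPKM in WT LPS (1.34 ± 0.07), and Tlr9, the sensor of bacterial DNA, 20.7 and 7.98 FPKM, KO LPS first (1.27 ± 0.07). In naive cells Tlr3 had 3.56 FPKM in KO naive and 3.94 FPKM in WT naive, so its levels were close there. Tlr4 itself was at 0.24, and Tlr2 was the 1 member below 0, at -0.68.

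The signalling chain below Toll-like receptor 4 had a median 0.04 below that of all genes, with 0 of 22 members higher and 1 lower. The lower gene was Cd14, the LPS co-receptor, at 849 FPKM in KO LPS and 2296 FPKM in WT LPS (-1.44 ± 0.01). Of 11 NF-kappaB and IkappaB genes, 1 was higher, Rel, which encodes c-Rel, with 68.3 FPKM in KO LPS and 33.5 FPKM in WT LPS (1.01 ± 0.04), and 0 were lower. Of 22 negative regulators of the pathway, 0 were higher (2 after rescaling) and 1 was lower, the cytokine signalling inhibitor gene Cish, with 21.3 FPKM in KO LPS and 84.7 FPKM in WT LPS (-1.94 ± 0.05). Of 20 immediate early genes, Egr1 (1.52) and Klf4 (1.36) were higher and Egr2 (-1.03) was lower, and after rescaling 3 were higher and 0 lower. All of these encode transcription factors.

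Downward, Ear2, an eosinophil-associated ribonuclease gene of a family of near copies, had 0.233 FPKM in KO LPS and 42 FPKM in WT LPS (-5.12 ± 0.22), and its value is uncertain for that reason. Vsig4, a complement receptor of resident macrophages, had 0.337 FPKM in KO LPS and 45.2 FPKM in WT LPS (-5.11 ± 0.13). Fabp7, a fatty acid binding protein gene, had 43.5 FPKM in KO LPS and 892 FPKM in WT LPS (-4.33 ± 0.06). In naive cells Fabp7 had 73 FPKM in KO naive and 182 FPKM in WT naive. As deposited, the WT library was thus higher with LPS and the KO library lower. The scale factors, 1.21 in KO naive and 0.74 in KO LPS, would bring these KO levels close to each other. Mmd, a gene induced as monocytes become macrophages, had 3.69 FPKM in KO LPS and 87.4 FPKM in WT LPS (-4.24 ± 0.08).

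Cd209a, a C-type lectin gene, was listed at 0 in KO LPS and had 11.7 FPKM in WT LPS. The beta globin genes Hbb-b2 and Beta-s, near copies that mark red blood cells, had 0.93 and 6.44 FPKM in KO LPS, against 20.9 and 49.4 FPKM in WT LPS. Both were lower in KO LPS, and the part of red cell RNA in other differences was not tested. Areg, an EGF receptor ligand gene, had 9.54 FPKM in KO LPS and 78.3 FPKM in WT LPS (-2.91 ± 0.10), and Pdgfb, a growth factor gene, 23.8 and 127 FPKM, KO LPS first (-2.37 ± 0.04). Ctla2a, the clotting factor gene F13a1, the stress gene Gadd45a, the selenoprotein P gene Sepp1, the hyaluronan synthase gene Has1, the coagulation factor gene F5 and Creb3l1 lay between -2.83 and -2.3.

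Receptors and opsonins for scavenging and for clearing dying cells split into 2 higher and 7 lower genes among 16 measured (2 and 5 after rescaling), with a median 0.38 below that of all genes. The C1q genes, whose products form the recognition unit of complement and tag dying cells, were lower together. C1qc had 101 FPKM in KO LPS and 520.2 FPKM in WT LPS (-2.35 ± 0.04), C1qb 156 and 753 FPKM, KO LPS first (-2.26 ± 0.03), and C1qa 163 and 434 FPKM, KO LPS first (-1.41 ± 0.03). Trem2, a lipid-sensing receptor gene, was at -1.28, the mannose receptor gene Mrc1 at -1.1 and the fatty acid scavenger gene Cd36 at -1.08, of which Mrc1 and Cd36 were within 2-fold after rescaling, and Vsig4 was the remaining one. The higher members were Mertk and Timd4, a phosphatidylserine receptor gene, with 140.3 FPKM in KO LPS and 62.1 FPKM in WT LPS (1.16 ± 0.03). In naive cells 8 of these 16 genes were at least 2-fold lower in KO and 2 higher, with a median of -1.06. C1qc had 234 FPKM in KO naive and 1390 FPKM in WT naive. The list median in tolerized cells was 0.13.

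Cholesterol and liver X receptor target genes had 0 of 17 higher and 5 lower, with a median 0.45 below that of all genes. Apoe, the main apolipoprotein of macrophages, had 2018 FPKM in KO LPS and 8172 FPKM in WT LPS (-2.02 ± 0.01). Pltp, the phospholipid transfer protein gene, had 29.7 FPKM in KO LPS and 206 FPKM in WT LPS (-2.75 ± 0.05). Apoc1, Apoc2 and the cholesterol synthesis gene Sqle were at -2.35, -1.51 and -1.19. Apoe, Pltp, Apoc1 and Apoc2 were also at least 2-fold lower in KO naive than in WT naive cells, at -2.24, -2.88, -3.39 and -1.97, while Sqle was at -0.14. In tolerized cells all of them were within 2-fold, Apoe at -0.73 and Pltp at -0.27.

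MHC class II genes, which present antigen to helper T cells, had 0 of 10 members higher and 2 lower, with a median 0.42 below that of all genes. H2-Aa had 459.9 FPKM in KO LPS and 1134 FPKM in WT LPS (-1.3 ± 0.02), and H2-Eb1 194 and 489.5 FPKM, KO LPS first (-1.33 ± 0.02). Their invariant chain gene Cd74 was at -0.98. MHC class I presentation genes had a median 0.41 above that of all genes and 17 of 19 above 0, with 0 higher (1 after rescaling) and 0 lower. Of 12 costimulatory genes, Tnfsf4 and Slamf7 (1.64) were higher and Icosl (-1.52) and Cd80 (-1.1) lower, 3 and 1 after rescaling.

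Markers of the resident large peritoneal macrophage had 7 of 15 measured genes lower and 1 higher (6 and 2 after rescaling), with a median 0.77 below that of all genes. Besides Vsig4 and F5, the fibronectin gene Fn1 had 216 FPKM in KO LPS and 676 FPKM in WT LPS (-1.64 ± 0.01). The adhesion receptor gene Selp (-1.32), the lipoxygenase gene Alox15 (-1.24), Cxcl13 and the tetraspanin gene Cd9 (-1.02) were the others, and Timd4 was the higher one. Gata6, the factor that defines these cells, had 2.88 FPKM in KO LPS and 6.15 FPKM in WT LPS (-0.88 ± 0.10), and the list summed to 2044 FPKM in KO LPS and 2797 FPKM in WT LPS. In naive cells 8 of these 15 genes were at least 2-fold lower in KO and 2 higher, with a median of -1.26. Vsig4 had 1.87 FPKM in KO naive and 158 FPKM in WT naive. The lower levels were thus not particular to LPS, and in tolerized cells the median was -0.06. In bulk RNA, fewer cells of a type and less RNA per cell cannot be told apart.

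Small peritoneal macrophage and monocyte markers had 2 of 7 measured higher, Treml4 (1.62) and Ly6c2 (1.26), and 1 lower, Retnla (-1.11; 0 after rescaling), and summed to 396 FPKM in KO LPS and 463 FPKM in WT LPS. Although the sum was lower in KO LPS, their median was 0.72 above that of all genes, with 5 of 7 above 0. Pan-macrophage markers had 4 of 17 higher, among them Mertk, the Fc receptor gene Fcgr1 (2.18) and the macrophage factor gene Maf (1.15), and 2 lower, Cd14 and the lineage factor gene Cebpa (-1.7). The pan-macrophage median was 0.37 above that of all genes, with 10 of 17 above 0. Neutrophil markers summed to 234 FPKM in KO LPS and 167 FPKM in WT LPS, with 1 of 5 higher, Mmp9, while 5 more, Cxcr2, Elane, Ltf, Ngp and S100a9, were at 0 in both libraries. Another measured marker, S100a8, was within 2-fold. Its mean log2(FPKM + 1) over the 6 libraries was 7.22, against 4.94 for Mmp9. The rows at 0 do not by themselves show that neutrophil RNA was absent, and its presence was not tested. B cell markers had 0 of 14 higher and 0 lower. T and NK cell markers, 3 of 17 measured, summed to 18.4 FPKM in KO LPS and 20.6 FPKM in WT LPS, with Cd3g lower (-1.09). Eosinophil and mast cell markers summed to 146 FPKM in KO LPS and 213 FPKM in WT LPS, with Epx and Prg2 at 0 in both and 0 of 7 higher or lower. Dendritic cell markers summed to 102 FPKM in KO LPS and 95.8 FPKM in WT LPS, with Cd209a as the 1 lower gene of 5, and mesothelial, fibroblast and endothelial markers summed to 11.7 FPKM in KO LPS and 11.1 FPKM in WT LPS, with 0 of 2 higher (1 after rescaling) and 0 lower. The part of these cells in the gene differences was not tested.

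Smarca4 (chromosome 9, 21420613 to 21508674, mm9), the gene of the reported target Brg1, had 18.4 FPKM in KO LPS and 11.7 FPKM in WT LPS (0.61 ± 0.05), with intervals of 17.6 to 19.1 FPKM in KO LPS and 11 to 12.3 FPKM in WT LPS. The intervals were apart and the difference was below 2-fold. In naive cells Smarca4 had 18.2 FPKM in KO naive and 17.1 FPKM in WT naive, and in tolerized cells 20.5 FPKM in KO tolerized and 20.1 FPKM in WT tolerized. WT LPS was thus the lowest of the libraries as deposited. With scale factors of 0.82 in WT LPS and 1.21 in WT naive, that rank did not hold after rescaling. Of 20 measured SWI/SNF subunit genes, 0 were higher and 0 lower, against 4.27% and 3.14% of all genes, so 0 calls is near those shares. Their median was 0.02 below that of all genes. Smarca4 had the highest difference of them, and Ss18 (-0.75) and Bcl7c (-0.70) the lowest.

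Of 18 measured genes reported as targets of the pair, Smarca4 among them, 0 were higher and 0 lower, with a median 0.04 below that of all genes. Over all genes 4.27% were higher and 3.14% lower, so 0 of 18 is near those shares and says little about the targets. Cdkn1b, the cell cycle inhibitor p27 and the best known target, had 7.74 FPKM in KO LPS and 8.98 FPKM in WT LPS (-0.19 ± 0.09). Zeb2, a transcription factor gene (0.67), and the p53 regulator gene Mdm2 (0.66) were highest, and the adhesion gene Icam1 (-0.66) and the death gene Bcl2l11 (-0.64) lowest. Of 9 genes of the microRNA machinery, 0 were higher and 0 lower, which is near the all-gene shares as well. Late LPS genes described as needing SWI/SNF had 4 of 12 higher, Nos2, Cxcl9, Lcn2 and Ifit3, and 0 lower, with a median 0.77 above that of all genes. Early LPS genes described as independent of it had 1 of 14 higher, Egr1, and 0 lower, with a median 0.23 above that of all genes. The difference between these lists was not tested, and in naive cells their medians were 2.04 and 1.01, late genes first.

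Sites for the shared seed were searched in the annotated 3′ UTR of 8420 genes (96.8%; longest per symbol, GENCODE vM21, GRCm38), as ATGTAGCA (8mer), ATGTAGC (7mer-m8) or TGTAGCA (7mer-A1) on the transcript strand. The 8mer contains both shorter forms, and each gene was counted under its best match. The sites below, with the match in capitals and flanking bases in lower case, are those of Tlr3, which was higher in KO LPS, of the caveolin gene Cav1, which was lower, and of the reported targets Cdkn1b and Bcl2l11.
Tlr3: ttttaagggcATGTAGCAccacacccag
Cav1: gtgctcagctATGTAGCAtctttctctc
Cdkn1b: aaagcattggATGTAGCAttgcgcaatt
Bcl2l11: aacccagcgtATGTAGCAtttgtattgc
They start at bases 893, 779, 2357 and 4037 of the 3′ UTR, and Cdkn1b and Bcl2l11 have 3 sites each. Cav1 was picked out with its value known, and it had 184 FPKM in KO LPS and 896 FPKM in WT LPS (-2.28 ± 0.02). The annotated 3′ UTR of Smarca4, 1262 bases long, holds no match to any of these forms.

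Over all 3′ UTR lengths, genes with a seed match lay slightly above the rest. The median difference was -0.02 for 300 genes with an 8mer, -0.10 for 601 with a 7mer-m8, -0.09 for 609 with a 7mer-A1 and -0.14 for 6910 with none. In the same order 18, 30, 30 and 267 genes passed 2-fold upward, and 4, 12, 16 and 215 downward. These differences were not tested. The median 3′ UTR was 2788 bases long with an 8mer and 930 with none. Among the third of genes with the longest 3′ UTRs the medians were 0.00 for 219 genes with an 8mer and -0.08 for 1780 with none. In the third with the shortest they ran the other way, -0.26 for 10 genes with an 8mer and -0.18 for 2722 with none. In the middle group the medians were -0.05 for 71 genes with an 8mer, -0.17 for 129 with a 7mer-m8 and -0.14 for 2408 with none. In naive cells the order was the other way, -0.12 with an 8mer and 0.01 with none, and in tolerized cells the medians were 0.03 and -0.03. With the shortest annotated 3′ UTR of each gene the LPS medians were -0.09 with an 8mer and -0.13 with none.

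**Figure D4:**
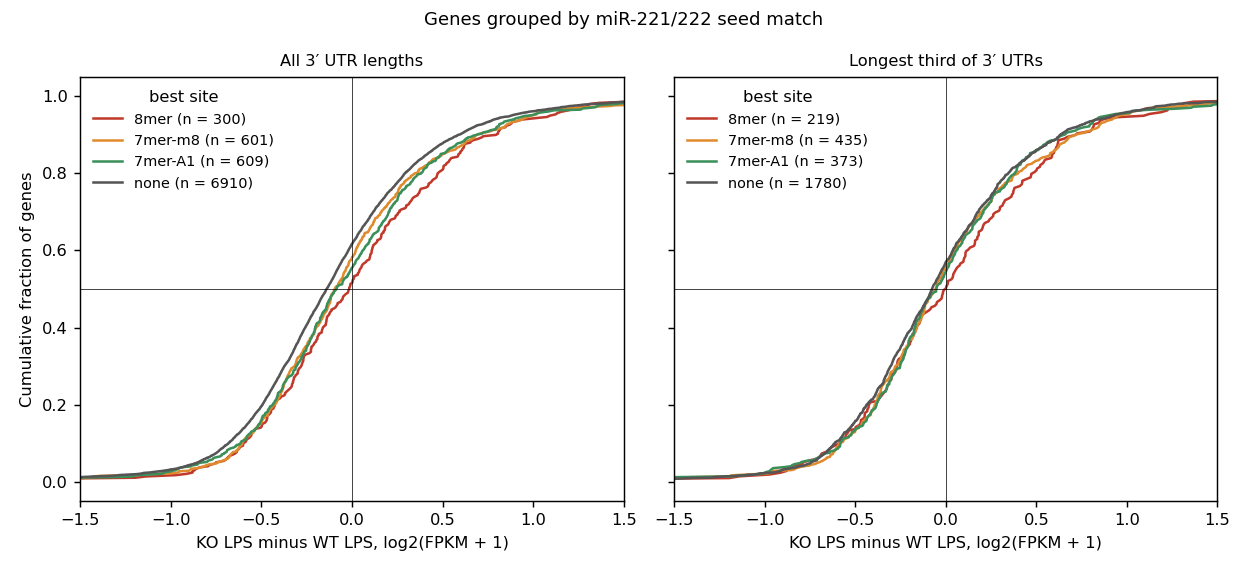
Cumulative fraction of genes (vertical) against the log2 difference of KO LPS minus WT LPS (horizontal), by best seed match in the 3′ UTR, for all lengths (left) and for the longest 3′ UTRs (right). The 8mer curve lies right of the curve without a match at its middle, with medians of -0.02 and -0.14 on the left and of 0.00 and -0.08 on the right.

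The difference also varied with transcript length. The median was -0.30 for the 2873 genes with the shortest annotated transcripts, -0.15 for the next 2873 and 0.06 for the 2874 longest, and in naive cells it ran the other way, 0.12, 0.00 and -0.13. Cytosolic ribosomal protein genes, which have short mRNAs, had 82 of 83 members below 0, 0 higher and 4 lower (2 after rescaling), with a median 0.42 below that of all genes. The lower ones were Rpl34 (-1.3), Rpl22l1 (-1.17), Rpl12 (-1.11) and Rpl10a (-1.01), and ribosomal genes have many pseudogene copies, so single values are uncertain. Set against genes of like length, the ribosomal median was -0.26, that of interferon-stimulated genes 0.61, of the GTPases 0.89, of acute phase genes 1.08 and of large peritoneal macrophage markers -0.78. The part of length in single differences was not tested. Respiratory chain genes had 0 of 72 higher and 0 lower.

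Casp4, the intracellular LPS sensor, had 124 FPKM in KO LPS and 115 FPKM in WT LPS (0.10 ± 0.04), and Nnt, a mitochondrial transhydrogenase gene, 2.68 and 2.23 FPKM, KO LPS first (0.19 ± 0.11), both within 2-fold. Prostaglandin and leukotriene genes had Ltc4s higher (1.49) and Ptgis (-1.79) and Alox15 lower among 12, so that 16.7% of the list was lower, against 3.14% of all genes. Oxidative stress genes had Nqo1 higher (1.21) and Srxn1 lower (-1.27) among 17. Glycolysis and hypoxia genes had the hexokinase gene Hk3 higher (1.22) and the peptide hormone gene Adm lower (-1.69) among 23. Unfolded protein and heat shock response genes had 0 of 17 higher and 3 lower (2 after rescaling), Chac1 (-1.57), Trib3 (-1.24) and Herpud1 (-1.07), so that 17.6% of the list was lower, against 3.14% of all genes. Of 10 cell cycle genes, 0 were higher (1 after rescaling) and 0 lower.

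The genotype pairs of naive and of tolerized cells share no library with the LPS pair and were set beside it. In naive cells 4.0% of 10283 genes passed 2-fold upward in KO and 3.19% downward (together 7.19%), and in tolerized cells 1.86% of 9757 were higher and 0.892% lower (together 2.75%). Of 369 genes higher in KO LPS and marked OK in every library, 117 (31.7%) were also at least 2-fold higher in KO naive and 63 (17.1%) in KO tolerized, against 4.34% and 1.83% of all 8665 compared. They were 31.1% of the 376 genes higher in KO naive and 39.6% of the 159 higher in KO tolerized. Of 272 genes lower in KO LPS, 63 (23.2%) were lower in KO naive and 22 (8.09%) in KO tolerized, against 2.33% and 0.796% of all. Those shared genes were 31.2% of the 202 lower in KO naive and 31.9% of the 69 lower in KO tolerized. Past 2-fold in the LPS pair alone were 213 of the higher and 195 of the lower genes. Across these 8665 genes, which are not independent replicates, the LPS difference had a Pearson r of 0.30 and a Spearman rho of 0.10 with the naive one, and 0.31 and 0.29 with the tolerized one.

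Higher in KO in all 3 conditions were 24 genes and lower 8. The 10 with the largest LPS difference among the higher ones were Ly6i, Cst7, Siglec1, Tnfsf4, Ifit2, Orm1, Fam26f, Rsad2, Gng11 and Tmem171. Cst7 had 143, 174 and 33.1 FPKM in KO naive, LPS and tolerized cells, against 3.86, 11.2 and 6.88 FPKM in WT cells. Fam26f had 19.8, 345 and 23.3 FPKM in KO cells and 6.11, 87.1 and 7.8 FPKM in WT cells. For both, KO was the higher library in every pair. The lower ones outside small RNAs were Hbb-b2, Ctla2a, F5, Igfbp4, Fn1, Cxcl14 and Pros1, the anticoagulant protein S gene. Ctla2a had 5.95, 6.18 and 16.7 FPKM in KO cells and 39.7, 50.2 and 75.1 FPKM in WT cells, and it has near copies, so its value is uncertain.

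**Figure D5:**
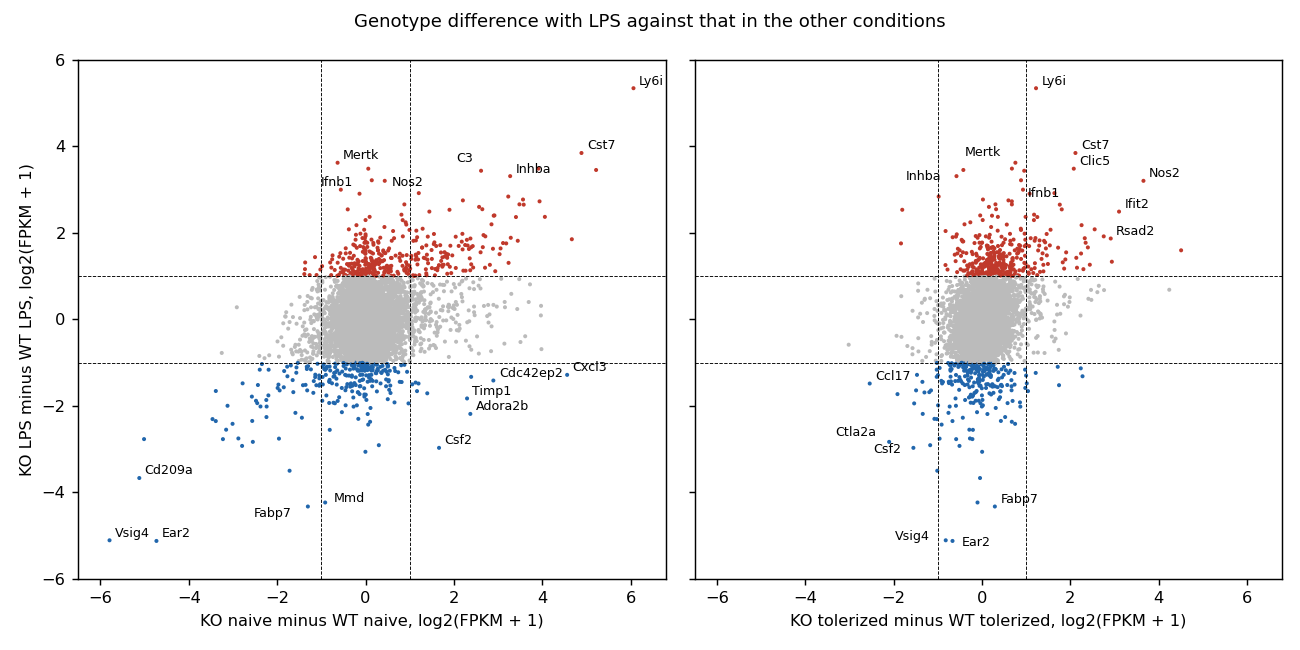
Log2 difference of KO LPS minus WT LPS (vertical) against the same difference in naive cells (left) and tolerized cells (right); points are genes without the small RNA genes, red at least 2-fold higher and blue at least 2-fold lower in KO LPS, and dashed lines mark 2-fold. Ly6i and Cst7 are at the upper right in both, and Mertk and Ifnb1 pass 2-fold with LPS and lie within 2-fold in naive cells.

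A fit of genotype and condition over the 6 libraries (limma, Benjamini-Hochberg adjustment) gave an average genotype effect, in which an effect confined to LPS counts as spread. Of 10164 genes, 0 were higher (0.0%) and 1 lower (0.00984%) at an adjusted p of 0.05, the small RNA gene Mir7-1, while 439 (4.32%) were higher and 271 (2.67%) lower at an unadjusted 0.05. Ctla2a was at -2.5 ± 0.20 (SE, adjusted p = 0.0714) and Rsad2 at 2.39 ± 0.25 (SE, adjusted p = 0.126). Fam26f was at 1.66 ± 0.18 (SE, adjusted p = 0.132), Cst7 at 3.62 ± 0.49 (SE, adjusted p = 0.177) and Ifit2 at 2.35 ± 0.32 (SE, adjusted p = 0.177). None of these named genes passed the threshold. They were taken from the genes past 2-fold in all 3 pairs, so their shared direction was fixed by that choice. The counts rested on single pairs of libraries. With 1 library of a condition left out, its partner no longer bears on the genotype effect, so the whole pair is in effect removed. In this way 134 were higher and 73 lower without the WT tolerized library, and 132 and 72 without the KO tolerized library. These are not separate checks, and at most 2 were higher and 3 lower without any other library.

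Within 10 Mb of the deleted genes on the X chromosome, by the mm9 coordinates, 23 genes were measured, with 0 higher, 1 lower and a median of -0.11, against -0.12 for the 240 other genes of the X chromosome and -0.13 for all genes. The lower one was Timp1, the metalloproteinase inhibitor gene, with 27.8 FPKM in KO LPS and 101 FPKM in WT LPS (-1.83 ± 0.08). In naive cells Timp1 had 10.8 FPKM in KO naive and 1.41 FPKM in WT naive, the opposite order.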

How the data were processed

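Poly-A mRNA of peritoneal macrophages was sequenced from TruSeq libraries, per the labels' protocols. The authors deposited 1 table of FPKM values with interval bounds for each library, per the file headers. bcl2fastq 1.8.4, TopHat, Cufflinks and the build mm9 are named in the submitters' processing notes. For TopHat and Cufflinks the version is not given in the sources used here, and the same holds for the annotation and for whether triplicates were pooled.

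Of 23699 rows, 311 not marked OK in both LPS libraries, 529 further rows of 248 symbols listed more than once, and 14165 below 2 FPKM in both were left out. Values were analysed as log2(FPKM + 1). With 1 library per group, differences were called by size (2-fold), with no p-value. Interval half-widths were taken as 2 standard errors. Read counts were not used here. The additive fit used limma 3.58.1 in R 4.3.3 (eBayes with trend, two-sided) on 10164 genes that reached 2 FPKM in 2 or more libraries, with 2 residual and 4.02 prior degrees of freedom. Tested on simulated data, it recovered most changed genes and called more unchanged genes than its threshold allows. The simulated effects were the same in all conditions and the noise was independent. The simulation therefore cannot show how many real effects the fit missed. With 1 library per group, the spread behind its p-values is how the KO minus WT difference varied between the 3 conditions. That spread cannot be split into condition effects and technical or animal variation. Whether libraries came from separate animals is not stated.

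The genes compared, the 41 gene lists and the tests were chosen with earlier results of these data known. Named genes are the 20 largest differences of each direction with at least 10 FPKM and intervals apart (small RNA genes left out), up to 4 members of each list, the 10 largest of each direction past 2-fold in all conditions, the 10 largest with opposite differences in naive cells, and genes of interest such as Smarca4, Tnf and Il6. Further members of a list are named where they pass 2-fold. Some genes are not reported here. Alternatives were other pseudocounts, filters, fold thresholds, rescaling and left-out libraries.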

Additional observations from a re-analysis of the deposited data

Results flagged for a closer look

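The 10 genes here have the largest LPS difference among those whose genotype difference passed 2-fold in one direction with LPS and in the other in naive cells, with 1 library per group, so the difference between the conditions was not tested. In all of them but Fam46c, KO LPS was below WT LPS and KO naive above WT naive. Csf2, the GM-CSF gene, was at -2.97 with LPS and 1.66 in naive cells, and Adora2b, an adenosine receptor gene, at -2.19 and 2.37. Timp1 was at -1.83 with LPS and 2.3 in naive cells, the cell cycle inhibitor gene Cdkn2b at -1.71 and 1.4 and Gprc5b at -1.66 and 1.16. The endothelin receptor gene Ednrb was at -1.5 with LPS and 1.06 in naive cells, the chemokine gene Ccl17 at -1.49 and 1.2, Pid1 at -1.46 and 1.13 and Cdc42ep2 at -1.42 and 2.89. Fam46c was the reverse, at 1.44 with LPS and -1.14 in naive cells.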

How the results depend on the processing

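No paired analysis was possible because the labels carry no replicate numbers and each group is 1 library, so the LPS pair has no replicates to block. The fit over all libraries has condition as a term. The count of genes higher in KO LPS was 171 with a pseudocount of 5, 246 among genes with at least 10 FPKM and 945 at 1.5-fold, against 371 as reported. The count lower was 137 with a pseudocount of 5 and 1251 at 1.5-fold, against 273. A pseudocount of 0.1 gave 483 higher and 396 lower, and rescaling 511 and 219. In the limma fit, leaving out 1 library, which in effect removes its pair, gave 1 to 134 genes higher and 2 to 73 lower, against 0 and 1. Of 220 named genes 115 were past 2-fold, and a pseudocount of 0.1 kept 115 and added 4. Rescaling kept 109, lost 6 (Cd80, Egr2, Herpud1, Retnla, Rpl10a and Rpl12), added 11 and changed the sign of 3 near 0. Osm, Cxcl16, Mrc1, Cd36 and Cd9, named beside these as past 2-fold in their lists, were also within 2-fold after rescaling. The cause was not tested. Depth limits low genes most, as the interval widths at 2 to 5 FPKM show.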

Other observations

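In all 18 genes outside small RNAs passed 2-fold in opposite directions with LPS and in naive cells, the macrophage transcription factor gene Maf among them. Maf had 29.3 FPKM in KO LPS and 12.7 FPKM in WT LPS, and 10.6 FPKM in KO naive and 22.5 FPKM in WT naive. KO was thus the higher library with LPS and the lower one in naive cells. Cxcl3, a neutrophil attractant gene, had 1366 FPKM in KO LPS and 3330.2 FPKM in WT LPS, and 207 FPKM in KO naive and 7.82 FPKM in WT naive. Cxcl3 was singled out here after its values were seen, and the change between conditions was not tested.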
